A study of Rattus norvegicus with 16 samples.

Results

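Bile acid synthesis and sterol transport were followed through 9 genes chosen by name: the synthesis enzymes Cyp7a1, Cyp8b1 and Cyp27a1, the nuclear receptors Nr1h4 and Nr0b2, the bile acid carriers Slc10a1 and Abcb11, and the sterol transporter subunits Abcg5 and Abcg8. They were found on the array by matching each probe's accession to its current symbol, which gave 10 probes for the 9 genes among 26913 named features. Liver RNA came from male Sprague-Dawley rats killed as adults at 78 to 86 days of age and was measured on 16 arrays, 4 per group. In MM, dams were dosed at 1.0 mg/kg/day with methylmercury, PCBs and organochlorine pesticides, given together in corn oil from the start of gestation until postnatal day 20, and each litter was adopted at birth by another dosed dam. In M, the dosing was the same and the pups stayed with their own mothers. In CC, dams had received corn oil alone and each litter was adopted at birth by another corn oil dam. In C, dams had received corn oil and the pups stayed with their own mothers. The labels of the M arrays disagree, since 1 field calls them controls and the others exposed, and they were taken as exposed. RNA of 8 pups per group was pooled in pairs, so each array stands for 2 rats, and the labels do not say which pups were littermates. The p-values therefore measure the spread between such pools.

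Bile acids are made from cholesterol in hepatocytes. Cyp7a1 starts the classic pathway and limits its rate, Cyp8b1 directs it to cholic acid, and the mitochondrial enzyme Cyp27a1 oxidizes the sterol side chain. The products activate the receptor Nr1h4 (FXR), which induces Nr0b2 (SHP), a repressor of Cyp7a1 and Cyp8b1, and the canalicular export pump Abcb11 (BSEP). Slc10a1 (NTCP) takes bile acids up from portal blood, and Abcg5 and Abcg8 join as a heterodimer that moves sterols into bile. Cyp7a1 is also known for a strong daily rhythm in rodent liver, and the labels used here give no hour of death.

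Each value below is the log2 ratio of liver signal (Cy5) over the signal of a universal reference RNA made from 14 rat cell lines (Cy3), so it compares arrays for 1 probe and not levels between genes. The scale carries an offset that draws the ratios of dim probes toward 0. All 10 hepatocyte markers examined, among them Alb, Apoa1 and Hnf4a, were well above background on all 16 arrays. So were all 8 markers of Kupffer cells and macrophages, and of 7 cholangiocyte markers on the array Spp1 and Anxa4 were on all 16 while Cftr and Slc10a2 were on none. In whole liver, fewer cells of a type and less RNA per cell cannot be told apart. The C and CC arrays lay on 1 slide and the M and MM arrays on the other, so exposure and slide cannot be told apart. Each slide had 2 rows of 4 arrays, and each row held 2 arrays of every group on that slide. Per array, 34.96% to 41.88% of probes gave liver signal well above background.

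Of the 9 genes, 8 were well above background in liver on all 16 arrays and were tested. The exception was Abcg8. Its liver signal of 67.3 to 75.8 units lay beside a local background of 68.5 to 73.5 units, and no array of any group showed it well above background. It was left out of every test, and its liver level had only a bound here. The probe of its partner Abcg5 read 88.8 to 277 units and was well above background on every array.

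The reference RNA held little of several of these transcripts, which sets how far liver exceeded it. Slc10a1 was at least 190-fold higher in liver than in the reference in M, at least 213-fold in CC and at least 218-fold in C. In MM, where the reference spot was above background on 2 of 4 arrays, the fold was 172. Cyp7a1 was at least 10.1-fold higher in MM, 11.1-fold in M, 9.06-fold in CC and 10.2-fold in C. Abcg5 was at least 2.40-fold to 3.06-fold higher over the 4 groups. Nr1h4, measured in the reference on every array, stood 28.4-fold above it in MM, 25.2-fold in M, 34.7-fold in CC and 40.3-fold in C. Where the reference was above background on no array of a group, the bound sets the liver mean against, per array, the higher of the probe's own reference signal and the dimmest reference signal that was well above background. Dyes were not swapped, so these folds hold any dye bias.

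Cyp7a1 differed widely between pools of the same group. Its log2 ratio was 3.81, 3.66, 3.29 and 2.87 in MM, 3.92, 1.83, 4.40 and 4.06 in M, 3.36, 4.41, 1.83 and 3.18 in CC, and 4.54, 3.81, 1.50 and 3.74 in C. A single low pool stood in each of M (replicate 6), CC (replicate 3) and C (replicate 11), whereas the MM pools lay closer together, and all 4 groups overlapped. Its SD around the group means was 1.05, and 9 of the 11082 tested features had a larger one, where the median feature had 0.183. The 10 spots of its probe on the same array varied with an SD of 0.368. Liver signal before normalization ran from 127 to 530 units, a 4.19-fold range.

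Cyp8b1 and Cyp27a1 were steadier. Cyp8b1 ran from 4.13 to 4.26 in MM, 4.29 to 4.61 in M, 3.91 to 4.33 in CC and 3.73 to 4.74 in C. Its SD around the group means was 0.313, larger than that of 85.4% of features. The 4 C pools split into a pair at 4.73 and 4.74 and a pair at 3.73 and 3.80, while the MM pools spanned the narrowest range. Cyp27a1 averaged 3.27 ± 0.11 in MM, 3.42 ± 0.21 in M, 3.39 ± 0.18 in CC and 3.37 ± 0.057 in C (SD, n = 4 each). At 0.149, its spread was below that of the median feature.

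Nr0b2, which encodes the repressor SHP, was the other widely varying gene. Its log2 ratio was 4.23, 3.71, 5.12 and 4.11 in MM, 3.67, 3.51, 5.26 and 5.52 in M, 3.83, 5.86, 3.02 and 3.59 in CC, and 3.74, 4.36, 3.57 and 4.77 in C. High and low pools occurred in every group and all groups overlapped. Liver signal ran from 612 units in CC replicate 3 to 7640 units in CC replicate 2, 12.5-fold apart within a single group. The 2 spots of the probe read 7476 and 7804 units on that highest array. On MM replicate 3, where they differed most, they read 3554 and 1831.5 units. The 2 spots of an array varied with an SD of 0.332, and with 0.709 on MM replicate 3. The SD around the group means was 0.907, with 14 features larger.

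Nr0b2 is shown with the bases upstream of its start because it was in most of the correlated pairs described further on. The stretch holds the 250 bases before the RefSeq start, GRCr8 chr5:151062910-151063159, plus strand, and capitals mark motif matches.
Nr0b2: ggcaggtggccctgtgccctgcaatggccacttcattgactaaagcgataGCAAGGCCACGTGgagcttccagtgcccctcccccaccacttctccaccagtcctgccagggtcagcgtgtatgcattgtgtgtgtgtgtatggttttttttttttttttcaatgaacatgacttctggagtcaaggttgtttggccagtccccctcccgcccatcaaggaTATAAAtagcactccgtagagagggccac
Motifs were searched on both strands. NCAAGGNCA, the extended element of the Nr5a2 (LRH-1) type, matched 1 time and overlapped a CACGTG E-box, and TATAAA matched 24 bases before the start. These are in 5.57%, 5.59% and 12.9% of all 33469 RefSeq promoters over the same length. The inverted repeat of the nuclear receptor element AGGTCA around 1 base, which holds AGGTCA on each strand, is in 0.0269% of promoters. It had no match in these letters, and neither did AGGTCA or AGATAA.

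Nr1h4 encodes the bile acid receptor FXR. Its log2 ratio was 4.06, 4.64, 5.28 and 5.34 in MM, 4.41, 4.29, 5.25 and 4.67 in M, 4.29, 5.18, 5.64 and 5.36 in CC, and 4.92, 5.34, 5.57 and 5.51 in C. The C pools were the highest as a group, and 1 M pool reached into their range. Its SD around the group means was 0.494, larger than that of 97.8% of features. The probe used had 1 spot per array, so no variation between spots of an array could be read. A further probe of the gene, with 2 spots per array and dimmer at 111 to 198 units, ran from 0.81 to 1.85.

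The carriers differed from each other in spread. Slc10a1 held 7.52, 7.36, 7.40 and 7.42 in MM, 7.47, 7.52, 7.69 and 7.64 in M, 7.80, 7.95, 7.56 and 7.71 in CC, and 7.77, 7.97, 7.71 and 7.69 in C. Every MM pool lay below every CC pool and every M pool below every C pool, by narrow gaps. Its SD of 0.121 was larger than that of 17.8% of features. Abcb11 held 3.87, 3.14, 5.68 and 3.63 in MM, 3.37, 3.54, 3.84 and 3.87 in M, 3.55, 4.05, 3.61 and 3.75 in CC, and 3.72, 3.86, 3.45 and 3.71 in C. A single pool, MM replicate 3, stood high. Both of its spots did so, at 6.07 and 5.28. That array had the largest spot-to-spot variation in the series, with a median coefficient of variation of 40.0% in the liver channel, and in the scanner software's own ratio its Abcb11 value of 8.56 lay inside the 8.09 to 8.92 of the other arrays.

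Abcg5, the measurable subunit of the sterol transporter, varied almost as widely as Nr0b2 in the log ratio. Its log2 ratio was 1.13, 0.82, 1.00 and 2.11 in MM, 1.73, 0.91, 1.50 and 2.31 in M, 1.39, 3.01, 0.49 and 1.10 in CC, and 0.55, 2.68, 0.72 and 1.57 in C. The pools highest in CC and C were more than 1 log2 unit above all others of their group, and the groups overlapped. Its SD was 0.834, with 20 features larger. The 2 spots of an array varied with an SD of 0.301.

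**Figure D1:**
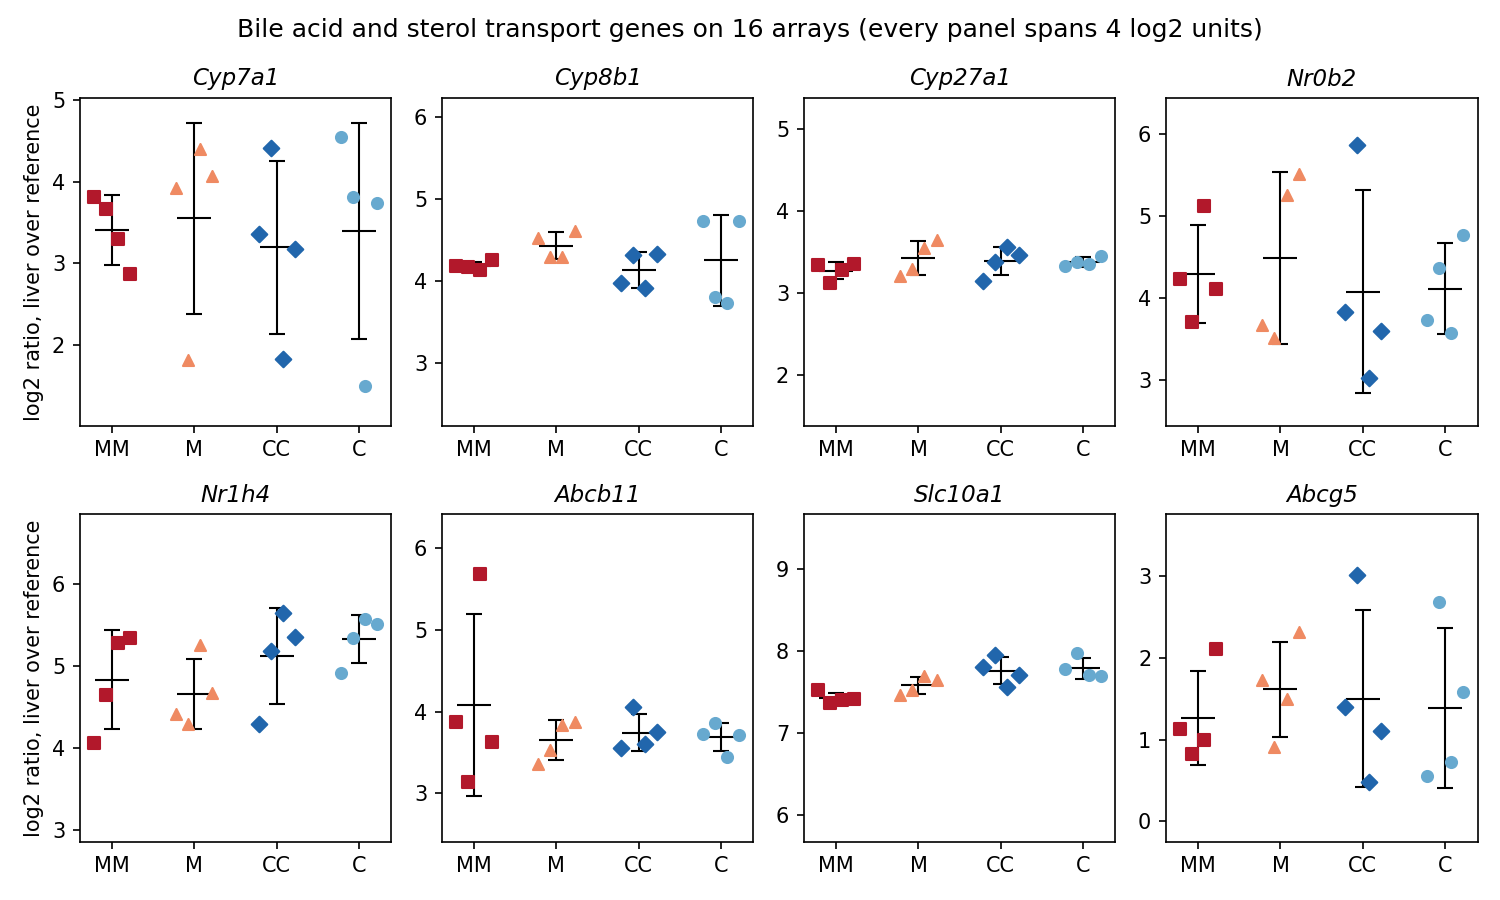
Log2 ratio of liver over reference for the 8 tested genes, with 1 point per array, the 4 groups along each axis in the order MM, M, CC and C, and bars for the mean and SD of 4 arrays. Every panel spans 4 log2 units, so the wide scatter of Cyp7a1, Nr0b2 and Abcg5 can be set beside the narrow scatter of Slc10a1 and Cyp27a1.

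**Figure D2:**
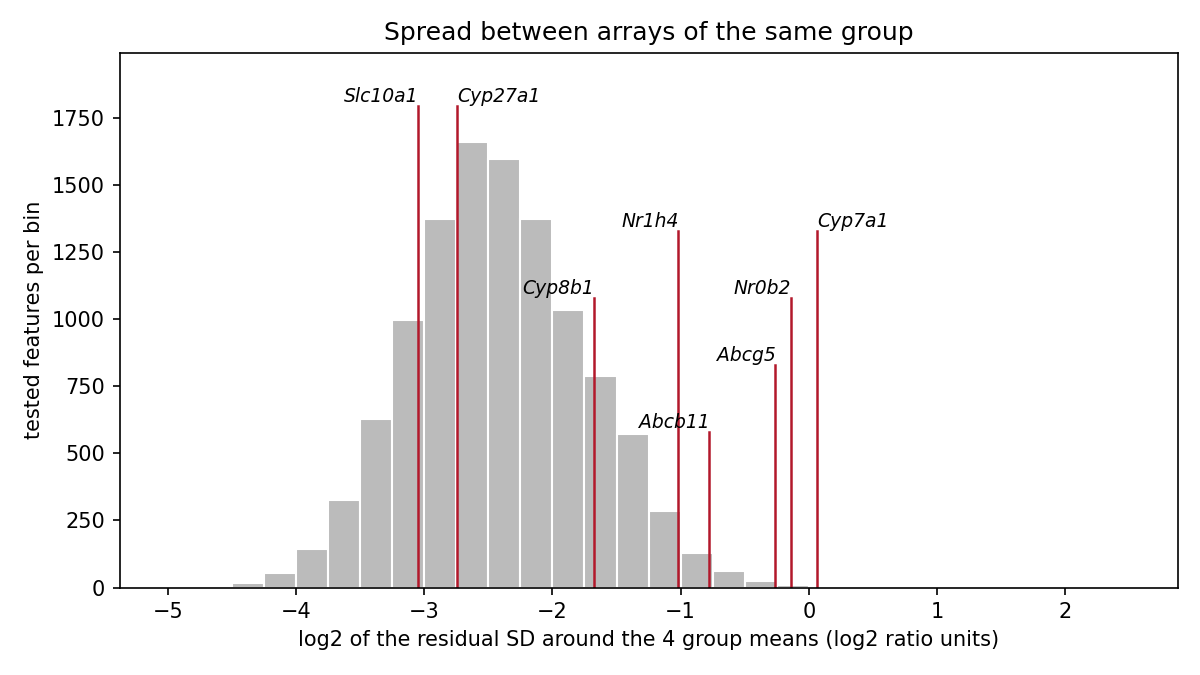
Number of tested features (vertical axis) by the log2 of their residual SD around the 4 group means (horizontal axis, bins of 0.25), with a line at each of the 8 genes. Cyp7a1 (SD 1.05), Nr0b2 (0.907) and Abcg5 (0.834) lie in the far right tail, and Slc10a1 (0.121) and Cyp27a1 (0.149) lie left of the median of 0.183.

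How far these ranks depended on the channel was read from the same fit on other values. In the scanner software's ratio, Cyp7a1, Nr0b2 and Abcg5 kept SDs larger than those of 99.7%, 98.5% and 99.7% of features. In the liver channel alone they stood at 99.4%, 99.9% and 96.0%, with SDs of 0.659, 1.05 and 0.449 in the same order. Abcb11 and Nr1h4 moved more, to 65.3% and 62.7% in the scanner software's ratio, and Slc10a1 stood at 68.7%.

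Abcg5 and Abcg8 start back to back in the RefSeq annotation, and the 205 bases between their starts are printed because the pair shares them while only Abcg5 gave a signal. The stretch is GRCr8 chr6:15717731-15717935, plus strand, reading from the start of Abcg8 to the start of Abcg5, with motif matches in capitals.
Abcg5-Abcg8: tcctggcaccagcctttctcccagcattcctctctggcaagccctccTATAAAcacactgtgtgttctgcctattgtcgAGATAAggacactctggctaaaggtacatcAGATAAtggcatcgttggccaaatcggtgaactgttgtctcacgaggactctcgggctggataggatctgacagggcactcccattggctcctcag
AGATAA, the GATA type of motif, matched 2 times and is in 8.35% of promoters over 205 bases, and TATAAA matched 1 time and is in 10.7%. NCAAGGNCA, AGGTCA, its inverted repeat and CACGTG had no match in these letters. Of the 9 genes, 6 were in the RefSeq promoter table. Cyp7a1, Nr1h4 and Abcb11 were not among them. In the 250 bases before the start of Cyp8b1, NCAAGGNCA matched 1 time, and before that of Slc10a1 AGGTCA, in 14.1% of promoters, matched 2 times. For Cyp27a1 the 250 bases of the promoter table, GRCr8 chr9:83713282-83713531, lay inside the annotated gene span, which begins at 83712402. In them NCAAGGNCA matched 1 time and AGGTCA 2 times, 1 of them overlapping it.

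Exposure was examined by M minus C in pups kept by their own mothers and by MM minus CC in fostered litters. No member passed the threshold in either comparison. In M minus C, 0 of the 8 genes were called, where 4.11% of all tested features were (limma, adjusted p under 0.05). In MM minus CC, 0 of the 8 were called, against 0.893% of all features. Of the 8, 2 had an unadjusted p under 0.05 in M minus C, against 17.3% of all features, and 1 in MM minus CC, against 11.1%. Groups did not overlap for 1 of the 8 in each comparison, against 10.9% and 6.6% of all features. The median change of the 8 was 0.099 in M minus C and -0.034 in MM minus CC, and 5 and 4 of them lay above 0. Over all features the medians were -0.029 and -0.025. These 2 comparisons share no arrays, but both set the same 2 slides against each other and use 1 shared estimate of spread.

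Slc10a1, the hepatic uptake carrier, gave the lowest p of any member. It averaged 7.42 ± 0.067 in MM and 7.76 ± 0.16 in CC (SD, n = 4 each), a change of -0.33 ± 0.095 (SE) with a limma adjusted p of 0.132 and no overlap between the groups. Features lower in MM than in CC without overlap made up 3.76% of all. It averaged 7.58 ± 0.10 in M and 7.79 ± 0.13 in C, a change of -0.21 ± 0.095 (limma adjusted p = 0.271), again with no overlap, as for 6.55% of features in that direction. In the authors' deposited table the M and C pools overlapped. The M minus C change there was -0.026 and the MM minus CC change -0.24. The scanner software's ratio gave larger changes than the log ratio. They were -0.36 for M minus C (limma adjusted p = 0.211) and -0.36 for MM minus CC (limma adjusted p = 0.282). The MM and CC pools overlapped in that ratio, with MM replicate 2 (11.14) above CC replicate 1 (11.11). By liver signal, too, MM replicate 3 (12.28) lay above CC replicate 3 (12.11). In the liver channel alone the change was -0.052 in M minus C and -0.031 in MM minus CC. In the reference channel it was -0.018 in M minus C and 0.021 in MM minus CC. Of all features, 0.00902% were called from liver signal in M minus C and 0.0271% in MM minus CC. From reference signal 48.5% and 45.3% were called in the same order, and 0 members were called from either channel. Within the first slide row M minus C was -0.38 and within the second -0.034, and MM minus CC was -0.44 and -0.23. With the slide row as a block the limma adjusted p of MM minus CC was 0.0485, which passed the threshold, where that fit called 3.77% of all features. The reference channel's spot-to-spot variation also differed by slide, at 9.42% to 12.5% on the M and MM arrays and 5.45% to 8.30% on the CC and C arrays. Within the slide of the M and MM arrays, Slc10a1 correlated with that variation at 0.040, and within that of the C and CC arrays at -0.542 (n = 8 each). The pooled value was 1 of 3 called among 88 relations of members with markers and array quality, and it is not given because the variation falls into separate ranges by slide.

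Nr1h4 averaged 4.66 ± 0.43 in M and 5.33 ± 0.29 in C, a change of -0.68 ± 0.31 (limma adjusted p = 0.273). It was -0.78 within the first slide row and -0.57 within the second. This call depended on the setting. With the row as a block the limma adjusted p was 0.0353, where that fit called 10.6% of all features. In the scanner software's ratio the change was -0.62 with a limma adjusted p of 0.0193, where 12.3% of features were called. In MM minus CC that ratio called 0 members and 4.37% of features. In the liver channel alone the change was -0.45 (adjusted p = 0.846), and the further probe gave -0.36 (adjusted p = 0.305). In fostered litters, Nr1h4 averaged 4.83 ± 0.60 in MM and 5.12 ± 0.59 in CC, a change of -0.29 ± 0.31 (limma adjusted p = 0.827).

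For the most variable genes the intervals of the exposure changes were wide. The 95% interval of Cyp7a1 ran from -1.23 to 1.53 in M minus C and from -1.17 to 1.59 in MM minus CC, which leaves a rise or a fall of more than 1 log2 unit undecided. Within the slide rows M minus C for Cyp7a1 was -1.31 in the first and 1.61 in the second. The interval of Nr0b2 ran from -0.82 to 1.57 in M minus C and from -0.98 to 1.41 in MM minus CC. For Abcg5 the intervals ran from -0.87 to 1.33 and from -1.33 to 0.87. By contrast Cyp27a1, the side chain oxidase, had intervals of -0.19 to 0.28 in M minus C and -0.35 to 0.11 in MM minus CC. Cyp8b1 had -0.25 to 0.61 and -0.38 to 0.48, and its change in M minus C turned to -0.83 (adjusted p = 0.152) in the scanner software's ratio. Abcb11 changed by -0.033 ± 0.37 in M minus C and by 0.34 ± 0.37 in MM minus CC, and without MM replicate 3 the second value was -0.20.

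Fostering was examined by CC minus C in unexposed litters and by MM minus M in exposed ones, the comparisons that the series design names. Again 0 of 8 genes were called in CC minus C and 0 of 8 in MM minus M, where 0% of all features were called in each, and 0 of the 8 had an unadjusted p under 0.05 in either, against 0.957% and 1.76% of features. In the scanner software's ratio 0 members were called in CC minus C, against 0.00902% of features. In CC minus C the 8 changes ran from -0.22 (Nr1h4) to 0.12 (Abcg5), with 3 above 0 and a median of -0.032. Groups did not overlap for 0 of the 8, against 0.875% of features in either direction and 0.496% lower in CC. In MM minus M they ran from -0.35 (Abcg5) to 0.43 (Abcb11), with 2 above 0 and a median of -0.15. The groups of Cyp8b1, the cholic acid enzyme, did not overlap in MM minus M, at 4.18 ± 0.053 in MM and 4.43 ± 0.16 in M, as in 0.722% of features in that direction and 1.07% in either. That change of -0.25 ± 0.20 had a limma adjusted p of 1, and in the scanner software's ratio it was 0.36. Abcb11 in MM minus M was -0.11 without MM replicate 3. The interaction, MM minus M less CC minus C, called 0 of 8 genes, as it called 0% of all features, and 0 of 8 had an unadjusted p under 0.05, against 1.64% of features. Its values ran from -0.46 (Abcg5) to 0.39 (Nr1h4).

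**Figure D3:**
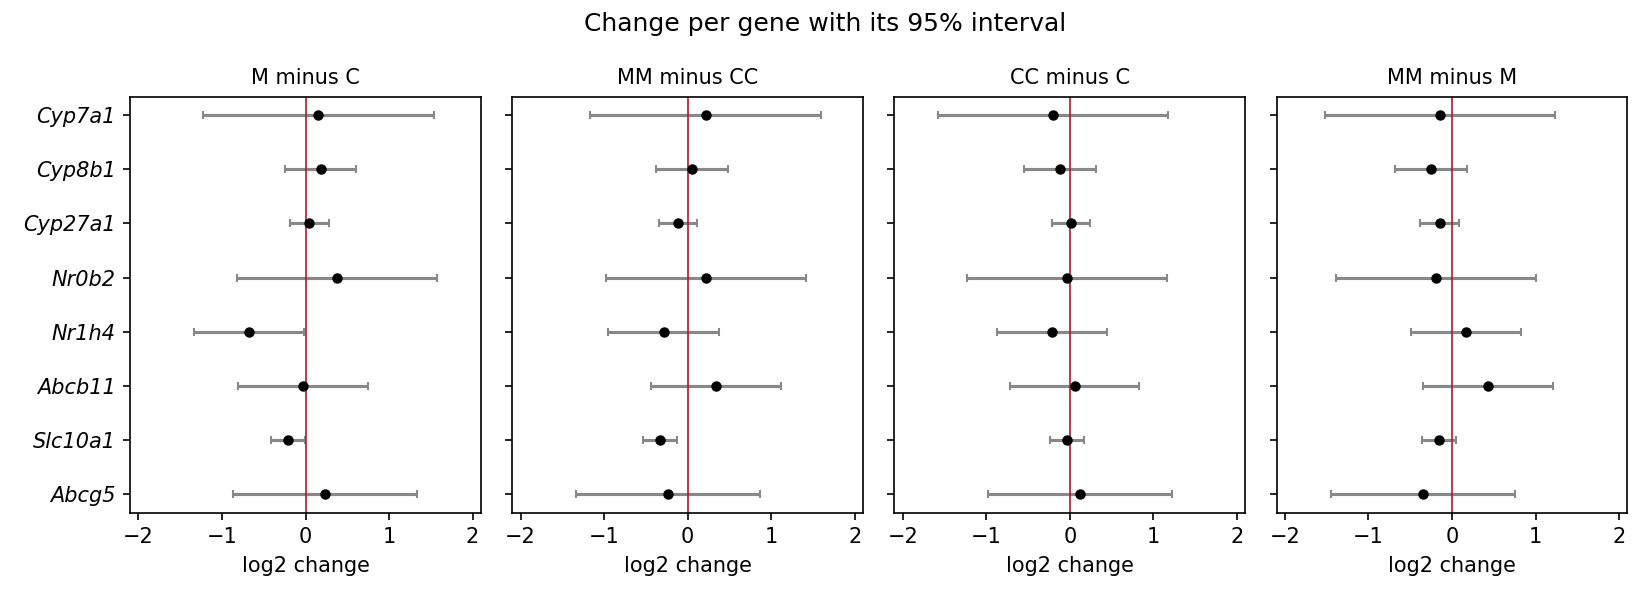
Log2 change of the 8 genes in M minus C, MM minus CC, CC minus C and MM minus M (horizontal axes), with 95% intervals from the limma fit on 16 arrays. Most intervals hold 0, and those of Slc10a1 in M minus C and MM minus CC and of Nr1h4 in M minus C lie below it, though none of these passed adjustment over all features.

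The arrays' position on the slide moved with 2 of the members. Over all features, 42.6% differed between the second and the first slide row (limma, adjusted p under 0.05, with the 4 group means in the fit), 45.3% in the liver channel alone, 1.4% in the reference channel and 0% in the scanner software's ratio. Nr1h4 averaged 5.33 in the second row and 4.64 in the first (n = 8 each), a difference of 0.69 ± 0.14 (SE, limma adjusted p = 0.00093), and its further probe differed by 0.28 (adjusted p = 0.0327). In the scanner software's ratio the Nr1h4 difference was 0.063 ± 0.11 (adjusted p = 0.891). Cyp27a1 differed by 0.19 ± 0.059 (adjusted p = 0.0193) in the log ratio and by -0.029 in the scanner software's ratio. For Cyp7a1, Nr0b2 and Abcg5, the row differences were -0.56 ± 0.44, 0.26 ± 0.40 and -0.18 ± 0.37, and with the row as a block 8, 12 and 18 features had a larger SD than they did.

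**Figure D4:**
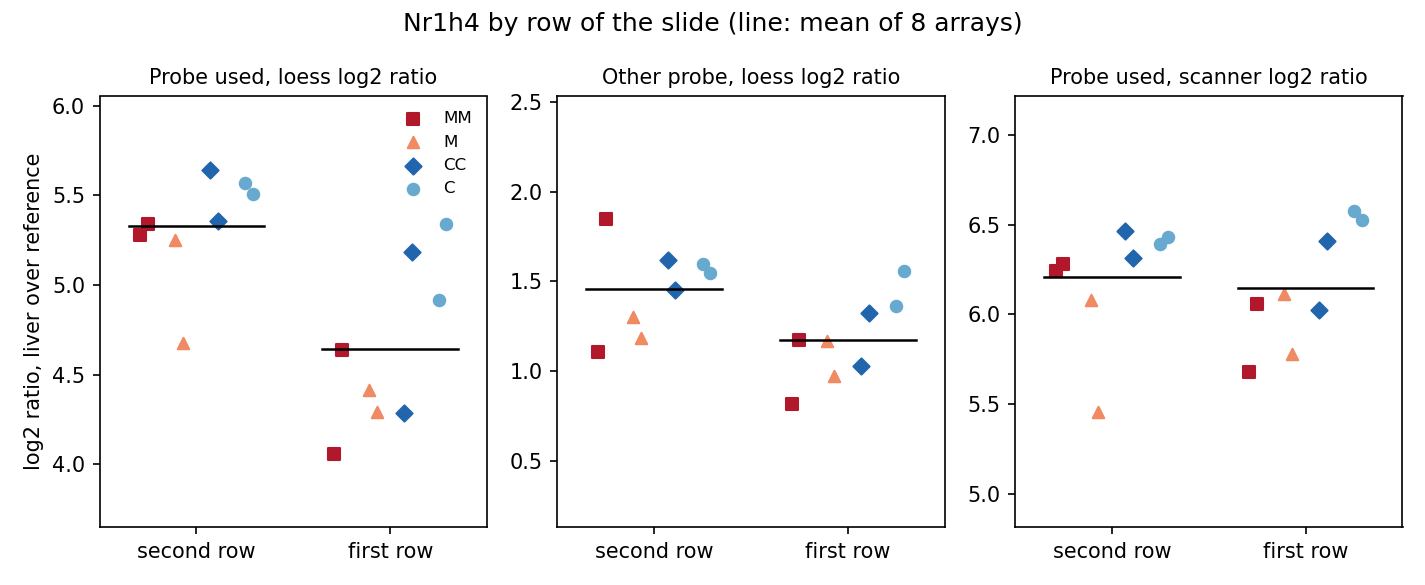
Nr1h4 by row of the slide, with 1 point per array and the mean of 8 arrays as a line, for the probe used, for the other probe and for the scanner software's ratio of the probe used. In the left panel the means are 5.33 for the second row and 4.64 for the first, and in the right panel they differ by 0.063.

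Among themselves the 8 genes formed 28 pairs, and their log2 ratios over the 16 arrays correlated from -0.216 to 0.675, with a median of 0.207 and 23 pairs above 0. After Benjamini-Hochberg adjustment over the 28 pairs, 0 Pearson correlations and 2 Spearman correlations had a p under 0.05, and 4 Pearson correlations did without adjustment. Nr0b2, the SHP gene, was in 3 of those 4.

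Nr0b2 and Abcg5 had the highest r, at 0.675 (permutation p = 0.00468, adjusted p = 0.131), with a Spearman rho of 0.706 (adjusted p = 0.0440). Without the 2 arrays farthest from the Nr0b2 median, r was 0.422. Within the slide of the M and MM arrays it was 0.399 and within that of the C and CC arrays 0.860, and within the slide rows it was 0.656 in the second and 0.799 in the first. It was 0.687 in the liver channel and 0.596 in the scanner software's ratio, and 0.544 without CC replicate 2, the pool highest in both genes. Of all features, 0.361% correlated with Nr0b2 as highly and 0.433% with Abcg5.

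Nr0b2 and Cyp7a1, repressor and target in the textbook circuit, correlated positively. The r was 0.611 (permutation p = 0.0122, adjusted p = 0.171), with a rho of 0.656 (adjusted p = 0.0705). Without the 2 arrays farthest from the Cyp7a1 median it was 0.571. It was 0.542 among the M and MM arrays and 0.652 among the C and CC arrays, 0.605 in the liver channel and 0.641 in the scanner software's ratio. The pools low in Cyp7a1, M replicate 6, CC replicate 3 and C replicate 11, were each the lowest of their group in Nr0b2. In MM the lowest pool was replicate 4 in Cyp7a1 (2.87) and replicate 2 in Nr0b2 (3.71). Leaving out each array in turn gave 0.531 to 0.711. Of all features, 0.533% correlated with Cyp7a1 as highly and 0.84% with Nr0b2.

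Nr0b2 and Abcb11, both induced by FXR in textbook accounts, had an r of 0.525 (permutation p = 0.0269, adjusted p = 0.188) and a rho of 0.747 (adjusted p = 0.0403), and r was 0.608 without the 2 arrays farthest from the Nr0b2 median. It was 0.582 among the M and MM arrays and 0.779 among the C and CC arrays, and 0.424 in the liver channel and 0.433 in the scanner software's ratio, where the unadjusted permutation p was 0.101 and 0.0944. Of all features, 2.19% correlated as highly with Nr0b2 and 4.52% with Abcb11. The enzymes Cyp7a1 and Cyp8b1 had an r of 0.563 (permutation p = 0.0231, adjusted p = 0.188) in the log ratio. Their r was 0.521 without the 2 arrays farthest from the Cyp7a1 median, 0.289 in the liver channel and 0.091 in the scanner software's ratio. As high a correlation with Cyp7a1 was reached by 1.18% of features and with Cyp8b1 by 1.03%. Nr1h4, the receptor, had an r of 0.100 with Nr0b2, 0.217 with Abcb11 and -0.216 with Cyp7a1, and none of these 3 had an unadjusted permutation p under 0.05.

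**Figure D5:**
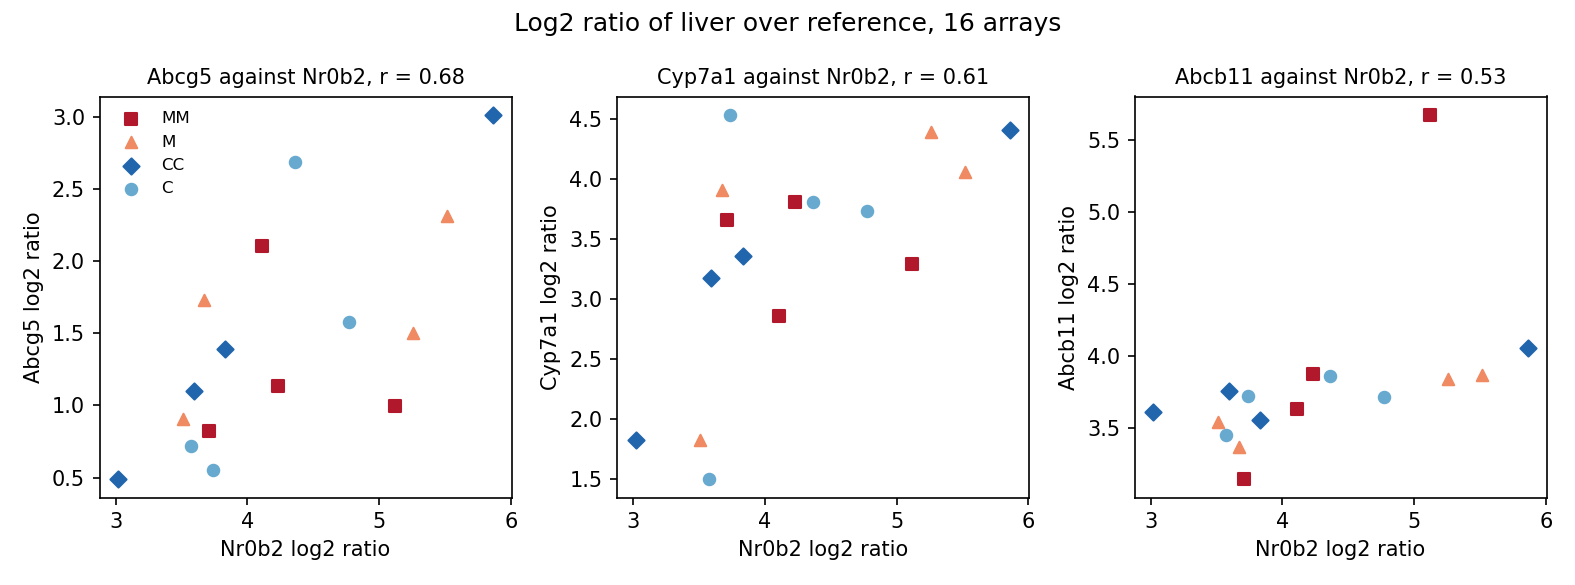
Log2 ratio of Abcg5, Cyp7a1 and Abcb11 (vertical axes) against that of Nr0b2 (horizontal axes) on 16 arrays, marked by group. Abcg5 (r = 0.675) and Cyp7a1 (r = 0.611) run upward with Nr0b2, the 3 lowest Cyp7a1 values lie at low Nr0b2, and MM replicate 3 stands apart at the top of the Abcb11 panel (r = 0.525).

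The features closest to each member were taken by the highest correlation of deviations from the group means over the 16 arrays. Only the 7370 tested features with a gene symbol could be chosen, of 11082 tested. For Cyp7a1 they were Rab33b (0.915), Dnajc12 (0.848) and Ppp1r3b (0.845), and for Nr0b2 Zfp354a (0.860), St8sia3 (0.849) and Ubr3 (0.842). For Abcg5 they were Gdf2 (0.923), Rwdd3 (0.908) and Gzma (0.893). Over all 16 arrays in the scanner software's ratio, the 3 features stood at 0.544 to 0.765 with Cyp7a1, 0.491 to 0.791 with Nr0b2 and 0.582 to 0.702 with Abcg5. For Nr1h4 the closest was Ruvbl1 (0.956), but 15.3% of all features correlated with Nr1h4 at 0.6 or more in the log ratio, against 0.641% with Cyp7a1 and 1.01% with Nr0b2. Ruvbl1 and Nr1h4 correlated at 0.569 in the scanner software's ratio. For Slc10a1 the 3 closest features, led by Sh3yl1 (0.865), correlated at -0.052 to 0.104 in that ratio.

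Other genes of the pathway were read from lists of bile acid synthesis, bile acid and sterol transport, regulators, clock genes and cholesterol synthesis. In all 5 lists, 0 members were called in any comparison, where 4.11% of all features were called in M minus C, 0.893% in MM minus CC and 0% in the others. Of 15 further bile acid synthesis genes 13 were tested, and 4 lay above 0 in M minus C (median -0.13, all features -0.029) and 3 in MM minus CC (median -0.18, all features -0.025). The bile acid CoA synthetase Slc27a5 gave -0.56 ± 0.15 in M minus C (limma adjusted p = 0.0508). The liver channel alone gave -0.051, and the reference channel gave 0.34. The peroxisomal oxidase Acox2 gave -0.57 ± 0.46 (limma adjusted p = 0.632) and the steroid dehydrogenase Hsd3b7 0.56 ± 0.20 (limma adjusted p = 0.144). In MM minus CC the farthest from 0 were Acox2 at -0.78 ± 0.46, the reductase Akr1d1 at -0.61 ± 0.31 and the acyl-CoA synthetase Slc27a2 at -0.41 ± 0.15, with limma adjusted p-values of 0.587, 0.494 and 0.285. In M minus C the others of the main pathway held Cyp7b1 at 0.22, Akr1d1 at -0.40, Cyp39a1 at -0.13, Baat at -0.29 and Amacr at -0.26, none of them called.

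Of 24 further transport genes 17 were tested, with 3 above 0 in M minus C (median -0.12) and 4 in MM minus CC (median -0.12). In MM minus CC the farthest from 0 were Lcat at -0.66 ± 0.39, Abcb4 at -0.54 ± 0.28 and Slco1b2 at -0.34 ± 0.41. Their limma adjusted p-values were 0.587, 0.501 and 0.863. Abcc3, Slc51a, Npc1l1, Slc10a2 and Abcb1a were well above background in liver on none of the 16 arrays. Of 14 regulators 11 were tested, with 5 above 0 in M minus C (median -0.043), 1 in MM minus CC (median -0.12) and 0 in MM minus M (median -0.13, where 50.6% of all features lay above 0). Mafg, a repressor in the FXR pathway in mice, gave 0.37 ± 0.11 in M minus C (limma adjusted p = 0.0688). The liver channel alone gave 0.078, and the reference channel gave -0.29. Rxra gave -0.31 ± 0.26 and Hnf4a -0.22 ± 0.15 in M minus C (limma adjusted p = 0.641 and 0.511). In MM minus CC, Rxra gave -0.38, Hnf4a -0.36 and Mafg 0.28 (limma adjusted p = 0.678, 0.346 and 0.306). All 14 cholesterol synthesis genes were tested, with 5 above 0 in M minus C (median -0.070), 9 in MM minus CC (median 0.18), 11 in MM minus M (median 0.17) and 3 in CC minus C (median -0.12). Of all features, 43.6%, 43.9%, 50.6% and 46.8% lay above 0 in these comparisons. Of 16 clock genes 10 were tested, with 4 above 0 in M minus C (median -0.064) and 5 in MM minus CC (median -0.012). In M minus C the farthest from 0 were Dbp at 1.31 ± 0.54, Tef at 0.79 ± 0.23 and Npas2 at -0.37 ± 0.14. Their limma adjusted p-values were 0.214, 0.0624 and 0.17, and Clock gave -0.33 ± 0.097 (limma adjusted p = 0.0738). The liver channel alone gave 1.36, 0.64, -0.18 and, for Clock, -0.20. Changes went in both directions, which a median does not show. Whether hour of death had a part was not tested.

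Across 520 pairs of a member with a gene of these lists, 3 Pearson and 5 Spearman correlations had an adjusted permutation p under 0.05. All of them involved Nr1h4 or Slc10a1. Of all features, 15.3% correlated with Nr1h4 at an r of 0.6 or more, and 4.69% with Slc10a1. Nr1h4 correlated with the organic anion carrier Slco1a4 at an r of 0.874 (permutation p = 2e-05, adjusted p = 0.0104, rho 0.903 with adjusted p = 0.0052) and at 0.628 in the scanner software's ratio. It correlated with Nr1h3, the oxysterol receptor LXR alpha, at an r of 0.867 (permutation p = 4e-05, adjusted p = 0.0104, rho 0.862 with adjusted p = 0.013) and at 0.570 in the scanner software's ratio. Slc10a1 correlated with the carrier Slco1a1 at an r of 0.803 (permutation p = 0.00017, adjusted p = 0.0295, rho 0.756 with adjusted p = 0.0652) and at 0.341 in the scanner software's ratio. By rank alone, Nr1h4 also passed with Lcat (rho 0.844, adjusted permutation p = 0.0139), Slc27a2 (rho 0.800, adjusted permutation p = 0.039) and Nfil3 (rho 0.800, adjusted permutation p = 0.0458), at an r of 0.440, 0.760 and 0.751. Without the 2 arrays farthest from the member's median the 3 Pearson values were 0.891, 0.871 and 0.733. Within the slide of the M and MM arrays they were 0.851, 0.800 and 0.873, and within that of the C and CC arrays 0.880, 0.855 and 0.859. Slide row moved with Nr1h4 as given above, and each slide held 2 rows, so the values within a slide mix rows. The part of the row in these values was not tested.

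Abcg5 also moved with the mean of the 8 Kupffer cell and macrophage markers, at an r of 0.762 (rho 0.747 with adjusted p = 0.0537, permutation p = 0.00043, adjusted p = 0.0378 over the 88 relations). It was 0.754 without the 2 arrays farthest from the median of the marker mean, 0.699 among the M and MM arrays and 0.873 among the C and CC arrays. With the mean of the 5 tested cholangiocyte markers r was -0.725 (permutation p = 0.0016, adjusted p = 0.0469, rho -0.656 with adjusted p = 0.132), -0.592 without the 2 farthest arrays, -0.773 among the M and MM arrays and -0.772 among the C and CC arrays. The marker means ran from 2.29 to 3.08 and from -1.93 to -1.59 over the 16 arrays. Of those 5 cholangiocyte markers, 2 were well above background on all 16 arrays. With the mean of the 4 tested sinusoidal endothelium markers, Abcg5 had an r of 0.615 (permutation p = 0.0117, adjusted p = 0.205). With the array's percentage of probes well above background in liver it was 0.571 (permutation p = 0.0209, adjusted p = 0.262). Abcg5 itself was dim. Whether these cells or the sensitivity of an array had a part in the Abcg5 values was not tested.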

How the data were processed

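Each array's scanner file held median spot and background intensity in Cy5 and Cy3 (Agilent Feature Extraction 11.0.1.1, design 028279, per the file headers). The same files gave, per the file headers, the scanner software's log10 ratio of red over green, here turned to log2. The authors' deposited value table is log2, as found by setting it against the scanner values (r of 0.989 to 0.995 with unsubtracted loess ratios, slopes 0.979 to 0.994, array medians -0.038 to -0.027), with its centring unstated.

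Normexp background correction (offset 50) of the median signals and loess within arrays were run in limma 3.58.1 (R 4.3.3), with control spots at weight 0, outlier spots left out and replicate spots averaged. Of 30367 probes, 18005 matched a RefSeq symbol (GRCr8) by accession. Probe coordinates are not given, since the design used another build. The brightest probe was kept per name, and 11082 of 26913 names passed the filter of liver signal well above background on 3 of 4 arrays of at least 1 group.

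A fit of 4 group means on 16 arrays (12 residual degrees of freedom) gave the contrasts, with Benjamini-Hochberg adjustment over all tested features and a threshold of 0.05, and was tested on simulated data. Correlations have two-sided permutation p-values (100000 resamples). The members, lists and tests were chosen with earlier results of these data known. Among other pathway genes the rule names those called, or else the 3 with the largest change per comparison, and 8 synthesis genes always. Only part of these are printed, mainly from the exposure comparisons. A result for 1 gene of the transport list is not reported here. Genes named as lacking signal and correlated list genes were chosen after their values were seen. CC and MM share replicate numbers 1 to 4. Deviations of same-numbered arrays correlated at 0.554, 0.155, 0.581 and 0.190. Such arrays share a slide row, and the labels give no shared litter or day. The pairing was fitted as an alternative. Other alternatives changed the background correction, ratio, channel, filter, slide row, probe and set of arrays. The number of arrays limits precision.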

Additional observations from a re-analysis of the deposited data

Results flagged for a closer look

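No array of any group stood apart by Dixon's test in the 8 tested genes (0 of 32 tests, where 1.6 are given by chance).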

How the results depend on the processing

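The count of members called in M minus C was 1 in the scanner software's ratio and 1 with slide row as a block (Nr1h4 in both), and in MM minus CC it was 1 with slide row as a block (Slc10a1). Under every other alternative run, leaving out each array included, 0 members were called in M minus C, MM minus CC, CC minus C, MM minus M and the interaction. With the replicate block on the 8 arrays of MM and CC, 0 members were called, and 133 of all features were, against 14 without the block on those arrays and 99 in the fit of 16 arrays. Of 1088 recomputed changes of members, 1053 stayed within 1 SD, 32 moved further and 3 became called, and 114 had the opposite sign, none of them called. Much of this tally was fixed in advance. The filters and blocks cannot move a change, and leaving out an array moves only comparisons that use its group. The reference channel measured 1 common RNA, yet 35 of its 40 values counted as within 1 SD, and 18 had the opposite sign. For the most variable genes 1 SD is also a wide margin. The scanner software's ratio called 1364 features in M minus C and 484 in MM minus CC, against 456 and 99, slide row as a block called 1174 and 418, and the liver channel alone called 1 and 3. The cause was not tested. Leaving out M replicate 6 or C replicate 11 moved Cyp7a1 in M minus C to 0.73 and -0.48. Signal over background limits Abcg8 and Abcg5 most.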

Other observations

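Some pathway genes that were not members also varied widely between pools of a group, and they were picked after their values were seen. The clock output gene Dbp had an SD around the group means of 0.867, and the xenobiotic receptor gene Nr1i3 (CAR) had 0.795, both larger than in 99.8% of features. The peroxisomal oxidase Acox2 had 0.746, the uptake carrier Slco1b2 had 0.651, the acyltransferase Lcat had 0.629 and the oxysterol hydroxylase Cyp7b1 had 0.627. Over the 10 tested clock genes, the correlation with Cyp7a1 ran from -0.456 (Nfil3) to 0.656 (Nr1d1), with 0.304 for Dbp, and none passed adjustment over 520 pairs. For Nr1d1 the permutation p was 0.00565 (adjusted p = 0.195) and rho was 0.444. Without the 2 arrays farthest from the Cyp7a1 median r was 0.487, and it was 0.379 among the M and MM arrays and 0.762 among the C and CC arrays. In M minus C Dbp was 1.31 ± 0.54 (SE, limma adjusted p = 0.214).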
